A study of Mus musculus with 99 samples.

Results

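AMP-activated protein kinase (AMPK) and its route to glucose uptake were followed through 10 genes, each found by its symbol in a table of 35870 genes. They comprise the catalytic alpha subunits Prkaa1 and Prkaa2, the scaffold beta subunits Prkab1 and Prkab2, the nucleotide-sensing gamma subunits Prkag1, Prkag2 and Prkag3, the Rab GTPase-activating proteins Tbc1d1 and Tbc1d4, and Slc2a4, which encodes the insulin-sensitive glucose transporter GLUT4. All 10 passed the filter on low counts in every comparison. No library listed a member at 0, and the lowest count was 62, for Prkag3 in a spinal cord library.

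AMPK is a trimer of alpha, beta and gamma subunits that is switched on when AMP and ADP rise against ATP, as in a contracting muscle fibre. It then favours fuel uptake and oxidation over synthesis. In skeletal muscle AMPK and the insulin-driven kinase Akt both phosphorylate TBC1D1 and TBC1D4, which relieves a brake on Rab proteins and lets vesicles carrying GLUT4 reach the cell surface. The trimer built from Prkaa2, Prkab2 and Prkag3 is known as the form that responds most to exercise in mouse and human muscle.

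RNA came from wild type male C57BL/6 mice that had been perfused with PBS, and the tissues were gastrocnemius, quadriceps and whole spinal cord. The groups were exercised at 18 months (13 gastrocnemius, 12 quadriceps and 13 cord libraries), sedentary at 18 months (10, 9 and 10 libraries in the same order of tissues) and sedentary at 10 months (10 libraries of each tissue). Of 99 labelled samples, 97 had a column and 2 were not analysed here. The labels do not describe the exercise, and exercised mice were present only at 18 months, so age and exercise can be separated only through the sedentary 18-month group. Each library carries a number such as 6.3 that recurs between tissues. Whether it stands for a mouse is not labelled, so p-values measure the spread between libraries. No 10-month library shares the first part of its number with an 18-month library. Age therefore cannot be told apart from what that part stands for. In bulk tissue, fewer cells of a type and less RNA per cell cannot be told apart.

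Depth was 29063006 to 62769274 counts per library, with a median of 38711167. The tissues carried their defining markers. Median TPM, a count scaled by transcript length and library total, ran over 8 muscle fibre genes from 261 to 43500 in gastrocnemius and from 194 to 43400 in quadriceps, while oligodendrocyte genes ran from 237 to 5450 in cord. Earlier results of these data set 5 libraries apart: gastrocnemius 3.1 and 2.2 and quadriceps 3.1, all sedentary at 10 months, and cord 5.2 and 6.1, both sedentary at 18 months. Values without them are given beside called genes that lose the call, or move by over 1.5 times, when they are left out. It is not given in the sources used here whether reads were counted by strand. Exons of Prkag1 share 950 bases (43.7% of its exon length) with an opposite-strand gene, B130046B21Rik, and those of Prkag2 share 795 bases (12.3%) with Prkag2os2, so the levels of Prkag1 and Prkag2 are uncertain to that extent.

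Of the annotated start regions of these genes, 4 are printed because they belong to the members on which the results turn: Prkag3, the gene with the widest gap between tissues, Prkab2, which was lower in exercised gastrocnemius, and Tbc1d1, which was lower at 18 months in muscle and has 2 annotated starts. Each window runs from 250 bases before to 50 after a start, 5′ to 3′ on the gene's strand, in RefSeq on GRCm38.p6. Capitals mark matches on either strand to the E-box CAGCTG or the GC box GGGCGG.
Prkag3, chr1:74748906-74749205, minus strand: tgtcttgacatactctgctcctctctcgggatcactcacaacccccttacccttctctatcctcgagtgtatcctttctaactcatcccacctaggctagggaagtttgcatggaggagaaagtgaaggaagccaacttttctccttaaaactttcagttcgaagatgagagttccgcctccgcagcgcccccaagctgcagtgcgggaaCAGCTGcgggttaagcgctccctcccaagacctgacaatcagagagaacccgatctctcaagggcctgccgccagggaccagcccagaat
Prkab2, chr3:97657962-97658261, plus strand: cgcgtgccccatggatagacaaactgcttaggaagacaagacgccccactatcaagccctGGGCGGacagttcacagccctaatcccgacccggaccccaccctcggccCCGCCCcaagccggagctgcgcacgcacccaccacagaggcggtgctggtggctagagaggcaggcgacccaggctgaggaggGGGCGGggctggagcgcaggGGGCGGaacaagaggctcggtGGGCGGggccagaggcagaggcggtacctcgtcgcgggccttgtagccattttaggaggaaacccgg
Tbc1d1 first start, chr5:64160010-64160309, plus strand: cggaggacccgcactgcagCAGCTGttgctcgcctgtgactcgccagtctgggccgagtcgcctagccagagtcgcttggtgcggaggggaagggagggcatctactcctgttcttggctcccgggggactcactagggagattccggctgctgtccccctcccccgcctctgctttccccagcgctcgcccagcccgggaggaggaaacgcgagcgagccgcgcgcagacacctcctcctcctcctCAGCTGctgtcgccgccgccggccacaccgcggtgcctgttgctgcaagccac
Tbc1d1 second start, chr5:64230107-64230406, plus strand: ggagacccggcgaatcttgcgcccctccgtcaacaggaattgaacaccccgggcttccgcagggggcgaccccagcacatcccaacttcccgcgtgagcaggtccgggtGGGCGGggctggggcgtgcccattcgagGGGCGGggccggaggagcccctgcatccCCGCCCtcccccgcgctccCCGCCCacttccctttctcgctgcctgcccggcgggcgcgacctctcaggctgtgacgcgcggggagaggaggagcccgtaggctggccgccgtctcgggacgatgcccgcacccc
RefSeq windows matched 9 of the 10 members, with 12 windows in all, and Slc2a4 is named only. CAGCTG occurred in the Prkag3 window, at position -40 relative to the start, and in the first Tbc1d1 window, at -231 and -3, and in none of the other 10 windows. Of 32851 mouse windows of the same length, 16.3% held CAGCTG and 35.7% held GGGCGG. The GC box occurred 5 times in the Prkab2 window and 4 times in the second Tbc1d1 window. It was not particular to these genes. The Prkaa1 window also held it 5 times, and it occurred in windows of Prkaa2, Prkag1, Prkag2 and Tbc1d4. The E-box of the Prkag3 window, found in 2 of the 12 windows, was near its background. The E-box CACGTG, held by 7.15% of all windows, was in none of the 12. Neither was the TATA box TATAAA, held by 13.6%. The FoxO motif GTAAACA, held by 3.65%, was also in none. The counts are per gene and cannot tell which Tbc1d1 start was used.

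Cord and muscle differed in the make-up of each subunit family. Levels are given first in TPM, which allows genes to be compared. Among the catalytic subunits, Prkaa1 averaged 25.8 ± 3.5 TPM in cord, 4.97 ± 0.82 TPM in gastrocnemius and 4.54 ± 0.68 TPM in quadriceps (SD, n = 33, 33 and 31). Prkaa2 showed the opposite order, with 6.61 ± 0.96 TPM in cord, 94.5 ± 17.2 TPM in gastrocnemius and 77.5 ± 15.2 TPM in quadriceps. Prkaa2 thus made up 20.4% of summed alpha TPM in cord, 95.0% in gastrocnemius and 94.4% in quadriceps. The ranges did not meet: 18.5% to 22.9% in cord libraries, 93.3% to 95.8% in gastrocnemius libraries and 92.3% to 95.7% in quadriceps libraries.

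For the beta subunits, which hold the trimer together and carry a glycogen-binding module, the shift was smaller. Prkab1 averaged 26.6 ± 1.9 TPM in cord, 10.16 ± 1.02 TPM in gastrocnemius and 9.199 ± 1.873 TPM in quadriceps. Prkab2 averaged 33.3 ± 3.4 TPM in cord, 261 ± 36 TPM in gastrocnemius and 208 ± 46 TPM in quadriceps. Prkab2 was 55.5% of summed beta TPM in cord, where the pair had near levels, but 96.2% in gastrocnemius and 95.7% in quadriceps.

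Among the gamma subunits, which bind the nucleotides, Prkag3 had the widest gap in level between cord and muscle. Prkag3 averaged 2.43 ± 0.52 TPM in cord, 213 ± 45 TPM in gastrocnemius and 139 ± 36 TPM in quadriceps. Prkag1, the widely expressed gamma subunit, averaged 99.0 ± 5.0 TPM in cord, 60.4 ± 3.2 TPM in gastrocnemius and 58.9 ± 6.2 TPM in quadriceps. Prkag2, known in human for mutations that cause a glycogen-storage cardiomyopathy, averaged 36.3 ± 1.7 TPM in cord, 6.37 ± 1.0 TPM in gastrocnemius and 5.74 ± 0.92 TPM in quadriceps. Of summed gamma TPM, Prkag3 was 1.77% in cord, 75.1% in gastrocnemius and 67.2% in quadriceps, while Prkag1 was 71.8%, 22.5% and 29.9% in the same order. Cord libraries also held muscle fibre transcripts, with the 8 markers summing to 109 to 875 TPM and a median of 267 TPM. Across the 33 cord libraries this sum had a Pearson correlation on the log2 scale of 0.69 with Prkag3 and 0.47 with Slc2a4, against 0.15 with Prkaa2 and 0.06 with Prkab2. These are descriptions over libraries that share a tissue, and the part of muscle RNA in the cord levels of Prkag3 and Slc2a4 was not tested.

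**Figure D1:**
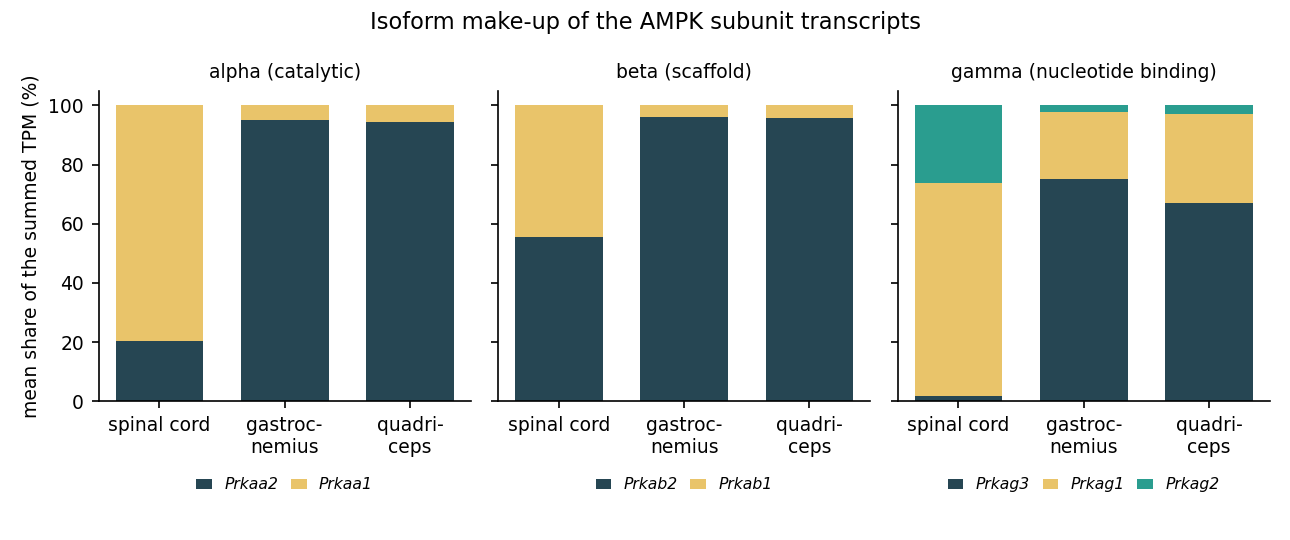
Mean share of summed TPM taken by each gene among the alpha, beta and gamma subunits, in cord, gastrocnemius and quadriceps (n = 33, 33 and 31 libraries). Prkaa2, Prkab2 and Prkag3 fill 95.0%, 96.2% and 75.1% of their families in gastrocnemius, against 20.4%, 55.5% and 1.77% in cord.

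Downstream of the kinase, Tbc1d1 averaged 11.5 ± 1.3 TPM in cord, 23.1 ± 7.2 TPM in gastrocnemius and 18.6 ± 5.9 TPM in quadriceps. Its paralogue Tbc1d4, also known as AS160, averaged 13.5 ± 1.6, 17.9 ± 5.0 and 16.4 ± 6.5 TPM in the same order. Slc2a4 averaged 9.61 ± 1.01 TPM in cord, 376 ± 31 TPM in gastrocnemius and 341 ± 29 TPM in quadriceps, the highest muscle level of the 10 genes. The Slc2a4 levels of cord and muscle libraries did not overlap, since the highest cord library had 12.2 TPM and the lowest muscle library 262 TPM.

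**Figure D2:**
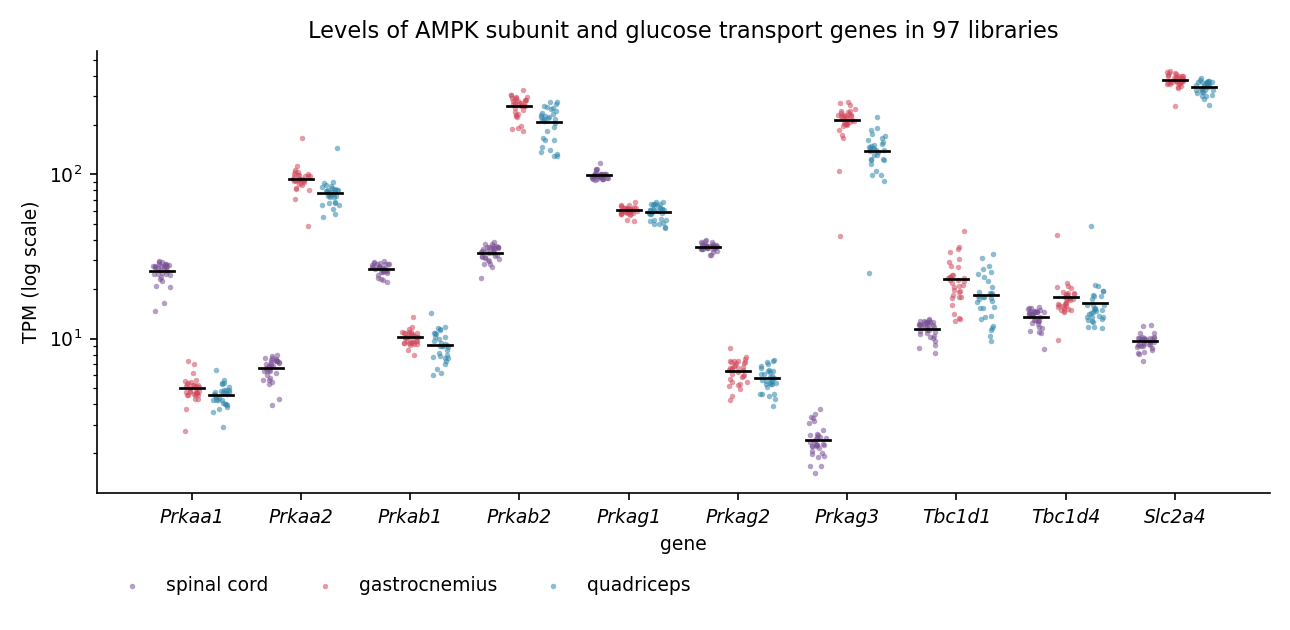
Deposited TPM on a log axis for the 10 genes in cord, gastrocnemius and quadriceps; each dot is 1 of 97 libraries and each black bar a tissue mean. Prkag3 and Slc2a4 are separated most widely between cord and muscle, and the Tbc1d4 clouds overlap.

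On TMM-normalized counts, 9 of the 10 genes differed between cord and the 2 muscles by edgeR's quasi-likelihood test with Benjamini-Hochberg adjustment over all genes, where 95.8% of all genes did. A count of 9 in 10 is therefore near the background. The size depended on the scaling: the median log2 difference of all genes, cord minus muscles, was 0.40 with TMM and 1.55 with library size alone. Against that median, Prkag3 stood at -7.66 with TMM and -6.51 with library size, Slc2a4 at -6.75 and -5.59, Prkaa2 at -5.23 and -4.08, and Prkab2 at -4.33 and -3.18. Tbc1d1 stood at -2.35 and -1.20, and Tbc1d4 at -1.87 and -0.72. Prkag2 stood at 1.06 and 2.21 and Prkaa1 at 0.92 and 2.07. The sign of Prkag1 turned with the scaling, at -0.78 with TMM and 0.37 with library size, and so did that of Prkab1, at -0.06 (adjusted p = 0.0696) and 1.09. Whether Prkab1 was called also depended on the setting. It was called with the replicate block (-0.05, adjusted p = 0.038), no filter (-0.09), limma voom (-0.06) and without the libraries set apart (-0.15). It was not called with RLE factors or DESeq2 (-0.04 each).

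Between the muscles, 5 of the 10 genes differed by edgeR, where 40.8% of all genes did. Prkag3 was higher in gastrocnemius by 0.48 on the log2 scale (adjusted p = 0.000107), Prkab2 by 0.21 (adjusted p = 4.07e-05), Tbc1d1 by 0.19 (adjusted p = 0.0278) and Prkaa2 by 0.15 (adjusted p = 0.00844). A count of 5 in 10 is near the background. Prkag1 was lower by 0.10 (adjusted p = 0.0072), a call that was lost with library size alone (-0.04, adjusted p = 0.394). Slc2a4 differed by 0.01 with an interval of 2 standard errors from -0.07 to 0.08.

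Age and exercise moved few of these genes. In gastrocnemius, edgeR called 1 member in exercised against sedentary 18-month mice, where 0.106% of all genes were called, and 1 in exercised 18-month against sedentary 10-month mice, where 6.73% were. It called 0 in sedentary 18-month against sedentary 10-month gastrocnemius, where 0.153% of all genes were called. There 1 member lay at an unadjusted p under 0.05. DESeq2 and limma each called 1 member, where they called 0.255% and 3.2% of all genes. In quadriceps the counts were 1 in the age comparison of sedentary mice (background 0.352%) and 2 in exercised 18-month against sedentary 10-month mice (background 11.1%). Exercise at 18 months gave 0 calls in quadriceps by edgeR (background 0.757%), with 1 member at an unadjusted p under 0.05. DESeq2 called none (background 0.737%) and limma 1 (background 4.29%). Comparisons within a tissue share groups and are not independent. In the larger comparisons of exercised 18-month with sedentary 10-month muscle, 1 and 2 of 10 are near the background.

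**Figure D3:**
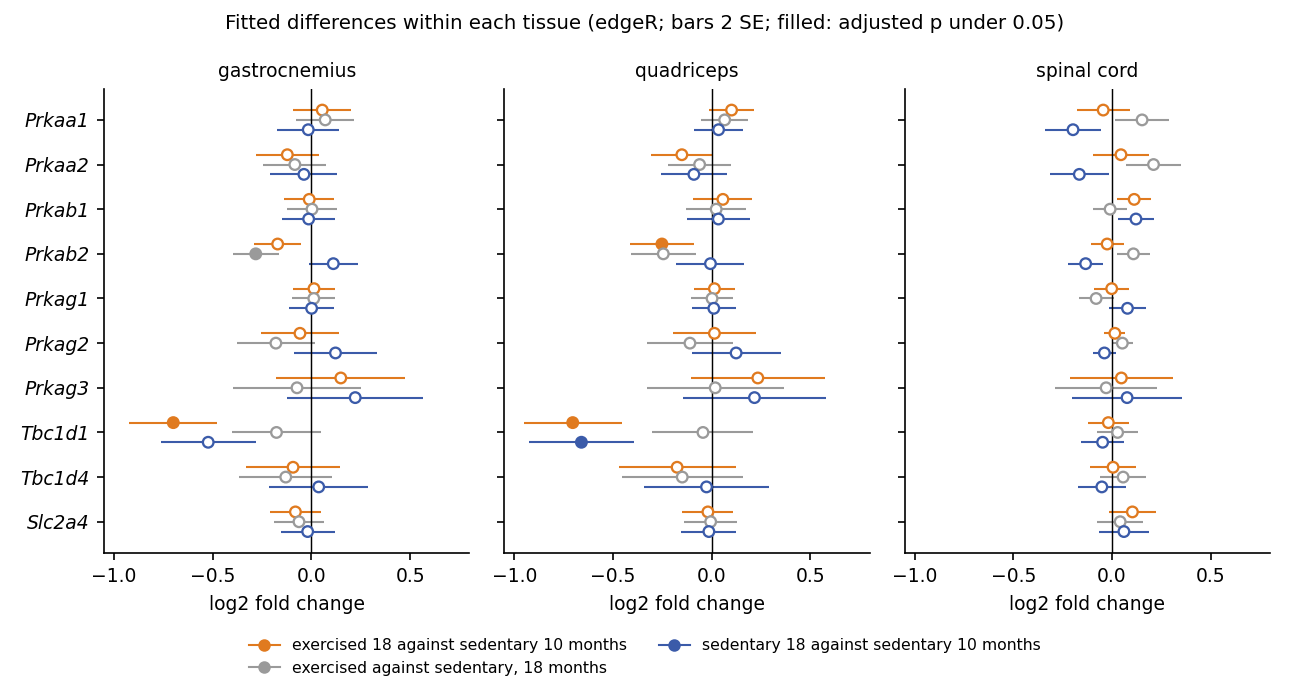
Log2 fold change of the 10 genes in the 9 comparisons within a tissue (edgeR, bars 2 standard errors; filled points have adjusted p under 0.05). The filled points belong to Tbc1d1 and Prkab2 in muscle, and no cord point is filled.

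Tbc1d1 was lower in 18-month than in 10-month muscle, and 3 of the 4 such comparisons passed. In gastrocnemius its TPM was lowest 13.2, median 18.4 and highest 23.5 in exercised 18-month mice. Sedentary 18-month gastrocnemius had 12.9, 21.3 and 29.5 TPM, and sedentary 10-month gastrocnemius 21.3, 29.0 and 45.5 TPM, in the same order of lowest, median and highest. The 18-month libraries lay low and the 10-month ones high, with some overlap in each comparison: 9 of 13 exercised and 5 of 10 sedentary 18-month libraries were below every 10-month library in TPM. In quadriceps the exercised 18-month libraries had 11.3, 14.6 and 19.3 TPM. Sedentary 18-month quadriceps had 9.72, 16.9 and 20.7 TPM, and sedentary 10-month quadriceps 18.9, 25.1 and 32.9 TPM. Here 11 of 12 exercised and 8 of 9 sedentary 18-month libraries were below every 10-month library in TPM.

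Tbc1d1 averaged 16.0 ± 3.7 TPM in sedentary 18-month and 25.2 ± 4.6 TPM in sedentary 10-month quadriceps (SD, n = 9 and 10), a log2 fold change of -0.66 ± 0.13 (SE; edgeR, adjusted p = 0.0167). Fitted on only the compared groups it was -0.65 and missed the threshold (adjusted p = 0.0606). All 9 older libraries were below the 10-month median. In sedentary gastrocnemius it averaged 21.3 ± 4.4 TPM at 18 months and 30.5 ± 7.3 TPM at 10 months (n = 10 each), a log2 fold change of -0.52 ± 0.12 that missed the threshold (edgeR, adjusted p = 0.0521). Of the 20 fits that each left out 1 of these libraries, 2 passed: those without 10-month library 3.2 (adjusted p = 0.0387) and without 18-month library 5.2 (adjusted p = 0.0322). Without the libraries set apart it was -0.48 (adjusted p = 0.0732). The age effects of gastrocnemius and quadriceps differed by 0.13 on the log2 scale, with an interval from -0.23 to 0.50.

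Exercised 18-month mice also had less Tbc1d1 than sedentary 10-month mice. Tbc1d1 averaged 18.7 ± 3.8 TPM in exercised gastrocnemius (n = 13), a log2 fold change of -0.70 ± 0.11 against sedentary 10-month gastrocnemius (edgeR, adjusted p = 0.000428). It averaged 14.9 ± 2.8 TPM in exercised quadriceps (n = 12), a log2 fold change of -0.70 ± 0.12 (edgeR, adjusted p = 0.000402). Both calls held in every fit without 1 library and in all 7 alternatives. Exercise itself, tested at 18 months, gave -0.18 in gastrocnemius (interval -0.40 to 0.05, adjusted p = 0.508) and -0.04 in quadriceps (interval -0.30 to 0.21, adjusted p = 0.947).

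In cord the Tbc1d1 levels of the groups lay close together. Tbc1d1 averaged 11.6 ± 1.3 TPM in exercised 18-month, 11.2 ± 1.8 TPM in sedentary 18-month and 11.7 ± 0.8 TPM in sedentary 10-month cord. Its age effect in cord was -0.05 (interval -0.16 to 0.06, adjusted p = 0.603). The difference between the age effect in cord and that in the muscles was 0.53 ± 0.14 (SE; edgeR, adjusted p = 0.0212, where 2.61% of all genes passed). That call held in 7 of 7 alternatives.

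Tbc1d4, the paralogue, was not called by edgeR in any muscle comparison. In gastrocnemius Tbc1d4 averaged 17.0 ± 1.6 TPM in exercised 18-month, 18.7 ± 2.1 TPM in sedentary 18-month and 18.4 ± 9.0 TPM in sedentary 10-month mice. In quadriceps the means were 14.8 ± 2.6, 17.4 ± 3.1 and 17.6 ± 10.95 TPM in the same order. Its log2 fold changes in the 6 muscle comparisons ran from -0.18 to 0.04 (adjusted p from 0.457 to 0.962). Tbc1d1 therefore made up a smaller part of the pair's summed TPM in older muscle: 52.0% ± 5.8 in exercised 18-month, 52.8% ± 6.6 in sedentary 18-month and 63.3% ± 5.9 in sedentary 10-month gastrocnemius. The quadriceps shares were 50.2% ± 6.8, 47.7% ± 8.5 and 60.7% ± 7.9 in the same order, and the cord shares 45.8%, 46.3% and 46.2%.

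Cell type markers were set beside these values. In quadriceps the summed adipocyte markers, in counts scaled to TMM library sizes (CPM), were 552 ± 150 CPM in sedentary 18-month and 441 ± 92 CPM in sedentary 10-month mice, with 0 of 9 called higher and 1 of 9 called lower. The fast fibre markers summed to 150700 ± 12290 and 149000 ± 13630 CPM in these groups, with 0 of 8 called. In gastrocnemius the sums were 384 ± 48 and 402 ± 83 CPM for adipocyte and 159900 ± 10720 and 153100 ± 19600 CPM for fast fibre markers. Their part in the Tbc1d1 difference was not tested.

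**Figure D4:**
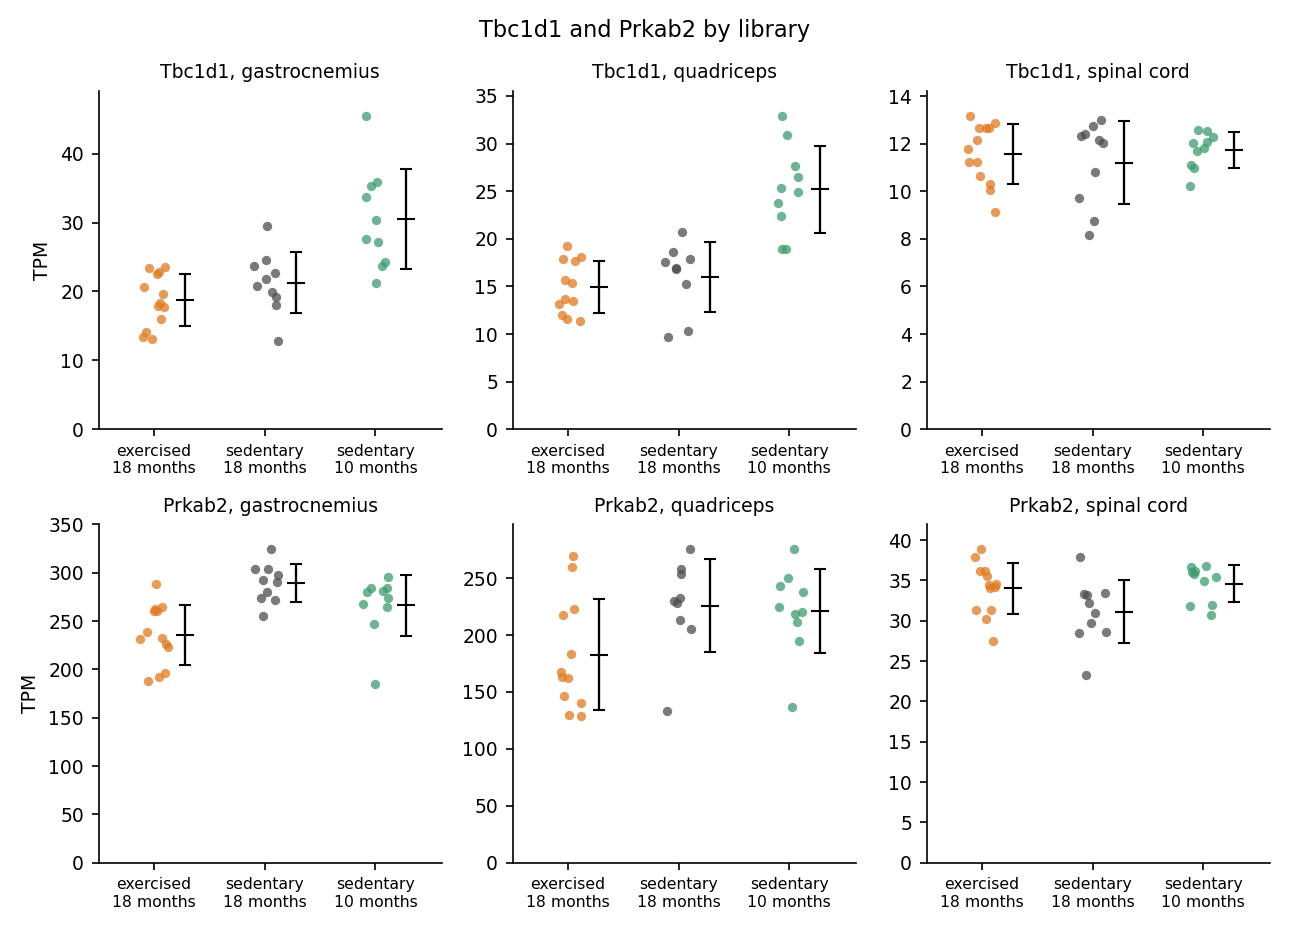
TPM of Tbc1d1 and Prkab2 in every library of the exercised 18-month, sedentary 18-month and sedentary 10-month groups of each tissue, with mean and SD. Tbc1d1 medians in gastrocnemius are 18.4, 21.3 and 29.0 TPM and Prkab2 medians 233, 292 and 277 TPM in that order of groups.

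Prkab2 was the member that differed with exercise. In gastrocnemius its TPM was lowest 188, median 233 and highest 288 in exercised 18-month mice, against 255, 292 and 325 TPM in sedentary 18-month mice. Sedentary 10-month gastrocnemius had 185, 277 and 296 TPM. All 13 exercised libraries were below the sedentary 18-month median in TPM, and the groups overlapped: 8 of the 13 were below every sedentary 18-month library in TPM, and 12 in TMM-scaled CPM. The means were 542 ± 64 CPM in exercised and 659 ± 37 CPM in sedentary 18-month gastrocnemius (n = 13 and 10), a log2 fold change of -0.28 ± 0.06 (SE; edgeR, adjusted p = 0.0377). The adjusted p of this call was close to the threshold: it was 0.0696 with no filter, and of the 23 fits that each left out 1 library 10 kept it, with adjusted p from 0.0103 to 0.09. Without the libraries set apart it was -0.28 (adjusted p = 0.00746). Those libraries are in neither group compared, so this fit could hardly move the estimate. Over all genes 4.52% were then called, against 0.106% with them.

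In quadriceps the Prkab2 difference had nearly the same size without passing. Exercised 18-month quadriceps had a lowest of 129, a median of 165 and a highest of 270 TPM, against 134, 230 and 276 TPM in sedentary 18-month quadriceps and 137, 222 and 276 TPM in sedentary 10-month quadriceps. The log2 fold change with exercise was -0.25 ± 0.08 (edgeR, adjusted p = 0.186), and 10 of 12 exercised libraries were below the sedentary 18-month median in TPM. Against sedentary 10-month quadriceps the exercised group averaged 442.1 ± 71.9 CPM against 526.4 ± 58.6 CPM, a log2 fold change of -0.25 ± 0.08 that passed (edgeR, adjusted p = 0.038) and that 10 of 22 fits without 1 library kept (adjusted p from 0.00998 to 0.0799). The exercise effects of gastrocnemius and quadriceps differed by -0.04, with an interval from -0.24 to 0.16. Exercised gastrocnemius against sedentary 10-month gastrocnemius gave -0.17 (adjusted p = 0.0689). Age in sedentary mice gave 0.11 in gastrocnemius (adjusted p = 0.576) and -0.01 in quadriceps (adjusted p = 0.985).

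In cord Prkab2 averaged 34.0 ± 3.2 TPM in exercised 18-month, 31.1 ± 3.9 TPM in sedentary 18-month and 34.6 ± 2.2 TPM in sedentary 10-month mice. Its exercise effect there was 0.11 (interval 0.02 to 0.19, adjusted p = 0.368). The difference between the exercise effect in cord and that in the muscles was 0.38 ± 0.08 (SE; edgeR, adjusted p = 0.00562, where 0.887% of all genes passed), and the call held in 7 of 7 alternatives. No member passed when the age effect was compared between gastrocnemius and quadriceps, or the exercise effect, where 0% of all genes passed edgeR in each (232 and 357 genes at an unadjusted p under 0.05).

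Other measures are given for the same libraries, without a test of the sums or shares. The share of counts in 13 mitochondrial genes was 12.4% ± 1.8 in exercised and 10.5% ± 0.8 in sedentary 18-month gastrocnemius, and 15.3% ± 3.0 and 13.2% ± 2.4 in the same order of quadriceps groups. Fast fibre markers summed to 139500 ± 15300 CPM in exercised and 159900 ± 10720 CPM in sedentary 18-month gastrocnemius, with 1 of 8 called higher, none called lower and a median log2 change of -0.16. Endothelial markers summed to 291 ± 52 and 241 ± 21 CPM, with 0 of 7 called, and fibroblast markers to 634 ± 117 and 517 ± 59 CPM, with 0 of 6 called. Their part in the Prkab2 difference was not tested.

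None of the other subunits was called by edgeR in any of the 6 age or exercise comparisons within a muscle. Prkag3 averaged 216 ± 44 TPM in exercised 18-month, 230 ± 21 TPM in sedentary 18-month and 193 ± 57 TPM in sedentary 10-month gastrocnemius, and its log2 fold changes in the 6 muscle comparisons ran from -0.07 to 0.23. Those of Prkaa2 ran from -0.15 to -0.04, of Prkaa1 from -0.02 to 0.10, of Prkab1 from -0.01 to 0.06 and of Prkag1 from 0.00 to 0.01. Prkag2 ranged from -0.18 to 0.12. Prkaa1 passed in exercised 18-month against sedentary 10-month quadriceps without library 3.1 (0.16, adjusted p = 0.0384) and with limma voom (0.14, adjusted p = 0.0306), against 0.10 (adjusted p = 0.251) by edgeR with it.

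Slc2a4, the GLUT4 gene, was not called by edgeR in any muscle comparison. It averaged 364 ± 17 TPM in exercised 18-month, 384 ± 18 TPM in sedentary 18-month and 384 ± 49 TPM in sedentary 10-month gastrocnemius. The quadriceps means were 332 ± 29, 349 ± 22 and 344 ± 34 TPM in the same order. With exercise the log2 fold change was -0.06 in gastrocnemius (interval -0.19 to 0.07) and -0.01 in quadriceps (interval -0.14 to 0.13), and with age -0.02 (interval -0.16 to 0.12) and -0.01 (interval -0.15 to 0.13). Exercised 18-month gastrocnemius against sedentary 10-month gastrocnemius gave -0.08 (adjusted p = 0.452), which passed without library 3.1 (-0.14, adjusted p = 0.0485) and with limma voom (-0.13, adjusted p = 0.0182).

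In the cord, 0 members passed edgeR in the age comparison of sedentary mice, where 5.35% of all genes did, in exercised against sedentary 18-month mice, where 0% did, and in exercised 18-month against sedentary 10-month mice, where 1.51% did. At an unadjusted p under 0.05 there were 4, 3 and 1 members in these comparisons. DESeq2 called 1, 0 and 0 members, where it called 5.06%, 0% and 1.57% of all genes. Limma called 1, 0 and 1, where it called 11.9%, 0% and 14% of all genes. A count of 1 in 10 is near these backgrounds. Over all genes the exercise comparison had 0 calls by edgeR, DESeq2 and limma and 2565 genes at an unadjusted p under 0.05. Prkaa1 had 64.3 ± 11.9 CPM in sedentary 18-month and 73.9 ± 3.8 CPM in sedentary 10-month cord (-0.20 on the log2 scale, adjusted p = 0.0875) and Prkaa2 18.2 ± 3.2 and 20.5 ± 1.9 CPM (-0.17, adjusted p = 0.158). The exercise changes of these alpha subunits had the opposite sign, 0.15 and 0.21, each with adjusted p = 0.368. Both comparisons use the sedentary 18-month group, in which the libraries set apart, 5.2 and 6.1, stand.

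The genes around AMPK were read from 10 lists. Among 8 upstream kinases and partners, 11 AMPK-related kinases and 6 energy-sensing genes of the folliculin and sestrin families, muscle held 1 call: Snrk rose in exercised 18-month against sedentary 10-month quadriceps (0.21, adjusted p = 0.0156). Snrk was 1 of the 11 related kinases (9.09%), against 11.1% of all genes, which is near the background. Of 18 genes of GLUT4 vesicle traffic, none was called by edgeR in either muscle in any of the 6 comparisons. The share of all genes called there ran from 0.106% to 11.1%, so 0 of 18 is near the background. Without the libraries set apart 1 was lower with exercise in gastrocnemius, where 4.52% of all genes were then called. In exercised 18-month against sedentary 10-month mice 1 was then higher in gastrocnemius and 2 in quadriceps, where 6.61% and 10.8% of all genes were called.

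Of 20 AMPK substrates, 2 were higher and 5 lower in exercised 18-month than in sedentary 10-month gastrocnemius (35% called, median log2 change -0.06, against 6.73% and -0.01 for all genes), or 2 and 3 without the libraries set apart. In quadriceps 2 were higher and 3 lower (25% called, median -0.07, against 11.1% and -0.01), or 2 and 1 without library 3.1. Pfkfb3, which makes the activator of glycolysis fructose 2,6-bisphosphate, rose by 0.72 in gastrocnemius (adjusted p = 0.0116) and 0.88 in quadriceps (adjusted p = 0.00453). It also rose with age in sedentary gastrocnemius (0.84, adjusted p = 0.0421, but 0.0706 without the libraries set apart) and quadriceps (0.95, adjusted p = 0.0369). Acaca, acetyl-CoA carboxylase of fat synthesis, rose by 1.04 in quadriceps (adjusted p = 1.45e-05). Mlycd, which removes malonyl-CoA, fell by 0.50 there (adjusted p = 0.0217), but by 0.25 without library 3.1 (adjusted p = 0.0437). In gastrocnemius the class II histone deacetylase Hdac5 fell by 0.23 (adjusted p = 0.00867) and Tfeb, a regulator of lysosome genes, by 0.31 (adjusted p = 0.0156). Hdac5 was at -0.15 (adjusted p = 0.0239) and Tfeb at -0.18 (adjusted p = 0.0769) without the libraries set apart. With exercise at 18 months 0 of the 20 were called in either muscle, where 0.106% and 0.757% of all genes were. Without the libraries set apart 1 was then higher and 2 lower in gastrocnemius, where 4.52% of all genes were called.

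In the insulin signal to glucose uptake (13 genes), 1 was higher and 1 lower in exercised 18-month against sedentary 10-month gastrocnemius, and likewise in quadriceps. That is 15.4% called in each muscle, against 6.73% of all genes in gastrocnemius and 11.1% in quadriceps, with list medians of -0.11 and -0.18 against -0.01 for all genes in both. Pak1, a kinase that remodels actin during GLUT4 translocation, rose by 0.60 in gastrocnemius (adjusted p = 0.00078) and 0.87 in quadriceps (adjusted p = 1.43e-05), and with age in sedentary quadriceps by 0.57 (adjusted p = 0.0312). Ptpn1, a phosphatase of the insulin receptor, fell by 0.25 in gastrocnemius (adjusted p = 0.00465). Insr, the insulin receptor, fell by 0.29 in quadriceps (adjusted p = 0.0463), but was at -0.13 without library 3.1 (adjusted p = 0.0918). With exercise at 18 months 0 of the 13 were called in either muscle, where 0.106% and 0.757% of all genes were. Without library 3.1, 1 was then lower in quadriceps, where 2.31% of all genes were called.

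Of 15 genes of glucose phosphorylation and glycogen, 2 were lower in exercised 18-month against sedentary 10-month gastrocnemius, and 4 were lower and 1 higher in quadriceps. That is 13.3% called in gastrocnemius, against 6.73% of all genes, and 33.3% in quadriceps, against 11.1%, with list medians of -0.11 and -0.14. Without the libraries set apart the counts were 1 higher and 2 lower in gastrocnemius and 2 higher and 2 lower in quadriceps. Gyg, the glycogenin primer of glycogen, fell by 0.30 in each muscle (adjusted p = 0.0263 in gastrocnemius and 0.0281 in quadriceps). Both Gyg calls were lost without the libraries set apart, at -0.15 (adjusted p = 0.0806) and -0.18 (adjusted p = 0.0532). Ppp1r3c, a glycogen-targeting phosphatase subunit, fell by 0.45 in gastrocnemius (adjusted p = 0.0248, but 0.0523 without the libraries set apart) and 0.42 in quadriceps (adjusted p = 0.0261). Phka1, a phosphorylase kinase subunit, fell by 0.32 in quadriceps (adjusted p = 0.0169). With exercise at 18 months 0 of the 15 were called in either muscle, where 0.106% and 0.757% of all genes were. Without the libraries set apart 1 was then higher and 3 lower in gastrocnemius, and 1 higher and 2 lower in quadriceps. The shares of all genes called were then 4.52% and 2.31%.

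Among 9 other GLUT family transporters tested, quadriceps had 2 higher and 1 lower in exercised 18-month against sedentary 10-month mice and 1 higher with exercise at 18 months. That is 33.3% called against 11.1% of all genes, and 11.1% against 0.757%, with list medians of 0.09 and 0.02. Slc2a5, the fructose transporter, was scarce, at 0.597 CPM in exercised and 0.205 CPM in sedentary 18-month quadriceps (log2 change 1.46, adjusted p = 0.0447). Against sedentary 10-month quadriceps Slc2a5 rose by 2.54 (adjusted p = 0.000111) and Slc2a9, a urate transporter, by 0.71 (adjusted p = 0.0179), while Slc2a3, which encodes the neuronal transporter GLUT3, fell by 0.37 (adjusted p = 0.0167). In cord Slc2a3 fell by 0.11 with age (adjusted p = 0.0477), and Slc2a9 rose by 0.43 in exercised 18-month against sedentary 10-month mice (adjusted p = 0.00797). Each was 1 of 9 tested (11.1%), against 5.35% and 1.51% of all genes.

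Of 14 transcripts known to respond to fasting or insulin, 2 were higher and 5 lower in exercised 18-month against sedentary 10-month gastrocnemius, and 2 higher and 4 lower in quadriceps. That is 50% called in gastrocnemius, against 6.73% of all genes, and 42.9% in quadriceps, against 11.1%, with list medians of -0.21 and -0.08. Without the libraries set apart the lower ones numbered 1 in gastrocnemius and 2 in quadriceps. Trim63, a ubiquitin ligase of muscle atrophy, fell by 0.95 in gastrocnemius (adjusted p = 0.0169), but by 0.32 without the libraries set apart (adjusted p = 0.0905). The fat synthesis genes Fasn and Elovl6 rose by 1.72 and 2.201 in quadriceps (adjusted p = 0.000354 and 2.09e-05), and Elovl6 rose by 1.93 with exercise in gastrocnemius at 18 months (adjusted p = 0.0391). Elovl6 averaged 4.75 ± 7.12 CPM in the exercised and 1.27 ± 0.648 CPM in the sedentary group there (n = 13 and 10). The SD of the exercised group thus exceeded its mean. Arrdc3, an arrestin-family gene, fell by 0.62 with age in sedentary quadriceps (adjusted p = 0.0185). With exercise at 18 months 1 of the 14 was called in gastrocnemius, where 0.106% of all genes were. Without the libraries set apart 2 were then higher and 1 lower, where 4.52% of all genes were called.

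The hour of collection is not given in the labels. Of 17 clock and clock output genes, 3 were higher and 1 lower in exercised 18-month against sedentary 10-month gastrocnemius (2 and 1 without the libraries set apart) and 3 higher and 2 lower in quadriceps (4 and 1 without library 3.1). That is 23.5% called in gastrocnemius, against 6.73% of all genes, and 29.4% in quadriceps, against 11.1%, with list medians of 0.07 and -0.02. Dbp, a clock output factor, rose by 1.15 in gastrocnemius (adjusted p = 0.00251) and 1.399 in quadriceps (adjusted p = 0.00083). Cry1, a clock repressor, fell by 0.44 in gastrocnemius (adjusted p = 0.000973) and 0.47 in quadriceps (adjusted p = 0.000157), and by 0.41 with age in sedentary quadriceps (adjusted p = 0.0167). With age in sedentary mice 0 of the 17 were called in gastrocnemius and 1, Cry1, in quadriceps, where 0.153% and 0.352% of all genes were. Some clock genes thus differed between groups in which Tbc1d1 also did, in either direction. The part of the clock genes in the Tbc1d1 difference was not tested. Besides Slc2a3, the listed genes called in sedentary 18-month against 10-month cord were Cab39, a partner of the AMPK kinase LKB1 (-0.16), the vesicle Rab gene Rab14 (-0.16), the clock output gene Hlf (-0.18) and the lipogenic regulator Srebf1 (0.14). They were 1 of 8, 1 of 18, 1 of 17 and 1 of 14 genes of their lists, where 5.35% of all genes were called. The lists of related kinases, substrates, folliculin and sestrins, insulin signal and glycogen had 0 calls. Over the 10 lists such counts are near the background. Without cord libraries 5.2 and 6.1 none of these 4 calls was kept, while that of Slc2a3 was (-0.10, adjusted p = 0.0468).

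Which genes varied most like the called members was read from 10593 genes over 64 muscle libraries, as the Pearson correlation of deviations from the group means. For Tbc1d1 they were Asb2 (0.66), Mllt1 (0.64) and Vldlr (0.63). Asb2, a muscle ubiquitin ligase subunit, also fell in exercised 18-month against sedentary 10-month gastrocnemius (-0.55, adjusted p = 0.000618) and quadriceps (-0.51, adjusted p = 0.000682), and so did the lipoprotein receptor gene Vldlr (-0.52, adjusted p = 0.00121, and -0.66, adjusted p = 9.8e-05). With age in sedentary mice neither was called: Asb2 had adjusted p = 0.341 in gastrocnemius and 0.299 in quadriceps, and Vldlr 0.504 and 0.25 (edgeR). For Prkab2 the genes most alike were Zc3h11a (0.77), Gpd2 (0.75) and Appl1 (0.74). None of these was called with exercise at 18 months in gastrocnemius (edgeR, adjusted p = 0.635, 0.168 and 0.404) or quadriceps (0.609, 0.168 and 0.0758). In exercised 18-month against sedentary 10-month mice only Appl1 was called, and only in quadriceps (-0.26, edgeR, adjusted p = 0.00432). Among the members, the strongest such correlations in muscle were 0.81 for Prkaa2 with Tbc1d4 and -0.79 for Prkaa2 with Prkag1. In the 33 cord libraries the correlation was 0.91 for Prkaa1 with Prkaa2. The points share libraries and depth, and the values are descriptions. The libraries set apart were included, and no correlation was computed without them. Of these, library 3.1 had the highest Prkaa2 and Tbc1d4 TPM in each muscle. Cord libraries 5.2 and 6.1 had the lowest Prkaa1 and Prkaa2 TPM of the cord.

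Libraries of gastrocnemius and quadriceps with the same number had like Tbc1d1 levels. Within exercised 18-month mice (12 numbers) Pearson's r of log2 CPM was 0.75 (permutation p = 0.00478, adjusted over 30 relations 0.0358) and Spearman's rho 0.84 (permutation p = 0.00121, adjusted 0.0304). Within sedentary 18-month mice (9 numbers) r was 0.84 (exact permutation p = 8.54e-05, adjusted 0.00256) and rho 0.90 (exact permutation p = 0.00203, adjusted 0.0304). Without the 2 libraries farthest from the median, r was 0.77 in the exercised and 0.63 in the sedentary 18-month group. Within sedentary 10-month mice (10 numbers) r was 0.48 and rho 0.58, with permutation p = 0.164 for r (adjusted 0.274). No group passed for Prkab2. In sedentary 10-month mice Prkag3 (r 0.99, permutation p adjusted 0.0081) and Prkag2 (r 0.93, adjusted 0.0358) also passed for r. Neither passed for rho (adjusted 0.102 and 0.209), and no other member passed for either. Over all genes, same-numbered libraries of the muscles deviated together in 29 of 31 pairs (correlation over 0.1, median 0.27). The likeness is therefore not particular to Tbc1d1.

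**Figure D5:**
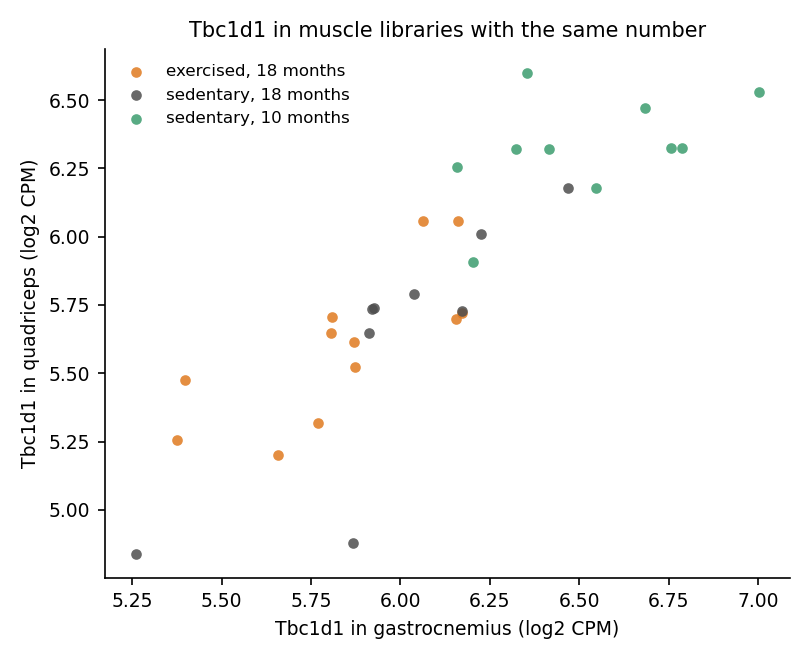
Log2 CPM of Tbc1d1 in gastrocnemius (x axis) against quadriceps (y axis) for libraries with the same number, by group. Pearson's r is 0.75 in exercised 18-month, 0.84 in sedentary 18-month and 0.48 in sedentary 10-month mice.

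Sedentary 10-month library 3.1 stood far from its group in both muscles, in a pattern that ran through most members. It lay within the range of the others for Prkab2 in gastrocnemius (267 TPM, others 185 to 296) and quadriceps (238 TPM, others 137 to 276). It also did so for Prkag1 in quadriceps (53.0 TPM, others 47.8 to 66.4). Its Prkaa2 level was 167 TPM in gastrocnemius, where the other 9 libraries had 48.5 to 103 TPM, and 145 TPM in quadriceps, where they had 65.3 to 83.5 TPM. Its Tbc1d4 level was 42.9 and 48.6 TPM, above the 9.84 to 18.8 and 12.8 to 16.1 TPM of the others. Its Prkag3 level was 42.0 TPM in gastrocnemius, below the 167 to 230 TPM of the others, and 25.2 TPM in quadriceps, below their 98.6 to 168 TPM. In that library Prkag3 fell to 42.5% and 30.6% of summed gamma TPM. The atrophy ligase gene Fbxo32, singled out after its values were seen, had 3396 CPM in gastrocnemius and 4362 CPM in quadriceps, above the 298 to 531 and 309 to 507 CPM of the others. Pdk4, a fasting-induced inhibitor of glucose oxidation chosen the same way, had 1310 and 1700 CPM, above 159 to 357 and 165 to 355 CPM. Its summed adipocyte markers (603 and 670 CPM) were above, and its endothelial markers (155 and 164 CPM) below, all other libraries of the group. Without it and the other libraries set apart, the calls for Tbc1d1 in exercised 18-month against sedentary 10-month mice remained, at -0.65 in gastrocnemius (adjusted p = 0.00108) and -0.67 in quadriceps (adjusted p = 0.000496).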

How the data were processed

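Polyadenylated RNA was prepared with Trizol and a TruSeq kit, per the labels' protocols. STAR 2.5.2b and GRCm38.p5 are named in the submitters' processing notes; no source used here names the counter or its use of strand. The authors deposited whole-number counts per gene, not normalized, and TPM, which per the file headers are per gene and library; TPM recomputed from the counts differed from the deposited TPM by at most 0.0005. Levels, shares and outliers were read from the deposited TPM.

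Counts were fitted with edgeR 4.0.16 (R 4.3.3) by quasi-likelihood, with TMM factors, filterByExpr (minimum count 10, minimum total 15) and Benjamini-Hochberg adjustment over all genes tested, called at adjusted p under 0.05. The 3 groups of a tissue were fitted together, and 6 or 9 groups for contrasts between tissues. SE is the absolute log2 fold change divided by the square root of F. The scripts were tested on simulated data. DESeq2 1.42.0, limma 3.58.1 voom with quality weights, RLE factors, no filter, library size only (chosen after seeing the data), the compared groups alone, libraries left out, a covariate and a replicate block were the alternatives. Windows were credited to RefSeq. The members and lists were chosen with earlier results of these data known. All 10 members are named, with at most 3 called genes per list and comparison by smallest p, and the 3 genes most like each called member.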

Additional observations from a re-analysis of the deposited data

Results flagged for a closer look

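Of 60 groups of 9 or 10 libraries checked for 1 library far from the rest by Dixon's criterion, 13 had such a library; chance flags about 1 in 20. Sedentary 10-month library 3.1 accounts for 9 of the 13. In gastrocnemius it had 167 TPM of Prkaa2 (others 48.5 to 103), 42.0 TPM of Prkag3 (others 167 to 230), 42.9 TPM of Tbc1d4 (others 9.84 to 18.8) and 262 TPM of Slc2a4 (others 354 to 427). In quadriceps it had 6.45 TPM of Prkaa1 (others 3.57 to 4.72), 145 TPM of Prkaa2 (others 65.3 to 83.5), 14.2 TPM of Prkab1 (others 6.03 to 9.61), 25.2 TPM of Prkag3 (others 98.6 to 168) and 48.6 TPM of Tbc1d4 (others 12.8 to 16.1). Sedentary 18-month quadriceps library 5.2 had 55.4 TPM of Prkaa2 (others 73.8 to 88.8) and 134 TPM of Prkab2 (others 206 to 276). Sedentary 10-month gastrocnemius library 2.2 had 185 TPM of Prkab2 (others 247 to 296). Sedentary 10-month cord library 2.1 had 108 TPM of Prkag1 (others 93.3 to 101).

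Effects differed between tissues for 2 genes by a test of the difference itself (edgeR). The age effect on Tbc1d1 in cord minus that in the muscles was 0.53 on the log2 scale (adjusted p = 0.0212). The exercise effect on Prkab2 in cord minus that in the muscles was 0.38 (adjusted p = 0.00562).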

How the results depend on the processing

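Counts of called members depended on the setting in several comparisons, and the cause was not tested. In gastrocnemius the age comparison had 1 with DESeq2 and 1 with limma voom against 0 by edgeR (0.255%, 3.2% and 0.153% of all genes). Exercise had 0 with no filter against 1 (0.0354% and 0.106% of all genes). Exercised 18-month against sedentary 10-month mice had 2 with DESeq2, 3 with voom and 2 without the libraries set apart against 1. The shares of all genes there were 4.82%, 12.4%, 6.61% and 6.73%. In quadriceps the age comparison had 0 with only the compared groups against 1 (0.118% and 0.352% of all genes). Exercise had 1 with voom against 0 (4.29% and 0.757%). Exercised 18-month against sedentary 10-month mice had 1 with library size only, 1 with no filter and 1 with only the compared groups against 2. The shares of all genes there were 7.39%, 4.54%, 7.53% and 11.1%. In cord the age comparison had 1 with DESeq2 and 1 with voom against 0 (5.06%, 11.9% and 5.35% of all genes). Exercised 18-month against sedentary 10-month mice had 1 with voom against 0 (14% and 1.51% of all genes). Leaving out 1 library at a time gave 0 to 1 calls for gastrocnemius age, 0 to 1 for gastrocnemius exercise, 1 to 2 and 1 to 3 for exercised 18-month against sedentary 10-month gastrocnemius and quadriceps, and 0 to 1 for cord age. With library size only, cord against muscles reversed for Prkab1 (1.09) and Prkag1 (0.37). With TMM CPM in place of TPM, 6 of 10 members kept the order of tissue means.

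Same-numbered gastrocnemius and quadriceps libraries deviated together in 29 of 31 pairs (correlation over 0.1; median 0.27, range -0.15 to 0.90), and 23 correlated best with their own number. With cord the median was 0.07 for gastrocnemius (33 pairs, 9 best with their own number) and 0.06 for quadriceps (31 pairs, 11 best). As the labels do not say what a number stands for, the main fits did not pair libraries. They thus took same-numbered libraries as independent, which the values between the muscles do not bear out. Tests between tissues in the main fits carry that limit. With the number as a replicate block, gastrocnemius against quadriceps gave 0.22 for Prkab2 and 0.20 for Tbc1d1, and the age and exercise effects of cord against muscles had 2 members each against 1, adding Prkaa1 (-0.26) and Prkaa2 (0.32); voom gave 2 and 3. With the first part of the number as a covariate, exercise gave -0.31 for Prkab2 in gastrocnemius (adjusted p = 0.00981) and -0.22 in quadriceps (adjusted p = 0.287). Age could not be fitted this way, because libraries of different ages share no first part.

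Over all genes, the alternatives called 14 to 481 genes for gastrocnemius age (main 23), 10 to 1360 for gastrocnemius exercise (16), 371 to 1865 for exercised 18-month against sedentary 10-month gastrocnemius (1011), 17 to 833 for quadriceps age (52), 73 to 634 for quadriceps exercise (112), 1085 to 2531 for exercised 18-month against sedentary 10-month quadriceps (1647), 252 to 2260 for cord age (1015), 192 to 2654 for exercised 18-month against sedentary 10-month cord (286), 252 to 2022 for the age effect (516) and 90 to 1443 for the exercise effect (175) of cord against muscles.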
